A study of Mus musculus with 4 samples.

Results

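Nuclei of the library labelled brown adipose tissue after surgery were set against nuclei of the library labelled brown adipose tissue after sham operation, both from mice on a high-fat diet. A barcode was a member when it held at least 300 genes, under 10% of UMIs (unique molecular identifiers, each a counted RNA molecule) from mitochondrially encoded genes, and fewer than 2 of the 5 epithelial genes Epcam, Krt8, Krt18, Cdh1 and Esrp1. Of 9942 barcodes kept after surgery 5856 were members, and of 10416 kept in sham 10369 were, together 16225 of the 36760 barcodes of the series. The series holds 4 libraries, a surgery and a sham library for each of the tissues labelled brown and beige, and its title names the operation as bariatric. The labels give diet, operation and tissue, and the sources used here do not give the strain, age, operative method, time after surgery or number of mice pooled. They name nuclear RNA, while the protocol describes digested tissue and a droplet kit of SeekGene, and barcodes are called nuclei here. Each side of the comparison is 1 library, so no test was made, differences are sizes, and the operation cannot be told apart from the animal, the dissection or the library. Intervals are exact 95% intervals for counting error only.

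Brown fat is a tissue whose adipocytes hold many lipid droplets and mitochondria and burn fatty acids to make heat through the uncoupling protein Ucp1. White adipocytes store triglyceride in a single large droplet and release it as fatty acids under adrenergic and natriuretic peptide signals. Both kinds of depot also hold mesenchymal progenitors, capillaries, macrophages and lymphocytes, and adipocytes and progenitors of each body region keep a regional pattern of Hox and other position genes.

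The label brown did not match the defining markers. Ucp1 had 12 UMIs in all surgery members and 3 in all sham members, and Zic1, a transcription factor gene of the brown lineage, had 0 and 3. The adipocyte class of the surgery library held 0 UMIs of Ucp1 and that of the sham library 2. Adipoq, Plin1, Cidec and the other adipocyte markers were detected in both, 11 of 11 in each library. The word brown is used below as the label of a library.

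The surgery library also held epididymal epithelium. The membership rule left out 4086 of its nuclei, 41.1%, against 47 in sham, 0.451%, and 94.9% of the surgery nuclei left out held at least 3 of the epididymal genes Gpx5, Lcn5, Lcn8, Adam7 and Rnase9. Nuclei just inside the rule, with 1 epithelial gene, numbered 2130 after surgery and 71 in sham, and those just outside it, with 2, numbered 1961 and 14. Among members used after doublets were taken out (5557 and 9923), epithelial-like clusters still held 2280 nuclei after surgery, 41.0% (39.7 to 42.3), and 9 in sham. Members had a median of 3271.5 and 4038 UMIs, and nuclei left out of the surgery library 7986. Surgery and sham shared 69 barcodes, 0.694% of the surgery library's.

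RNA of these nuclei was found in the other classes. From 20 epididymal genes, 4.53% of the UMIs of surgery adipocytes, 7.31% of macrophages, 7.84% of progenitors, 15.8% of endothelial nuclei and 19.0% of B or plasma cells were estimated to be epididymal. In sham these genes, chosen to be under 1 CPM (counts scaled to a class total of 1e6 UMIs) there, summed to at most 5.64 CPM in a class, and the share was set to 0. From 5 adipocyte genes, 15.1% of the UMIs of sham macrophages, 18.2% of progenitors and 20.5% of endothelial nuclei were estimated to come from adipocytes, against 1.42%, 0.895% and 2.33% after surgery. Such RNA adds epithelial genes to every surgery class and adipocyte genes to the other classes of sham. Ratios with both estimates taken off are given where a call ended or a side turned.

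**Figure D1:**
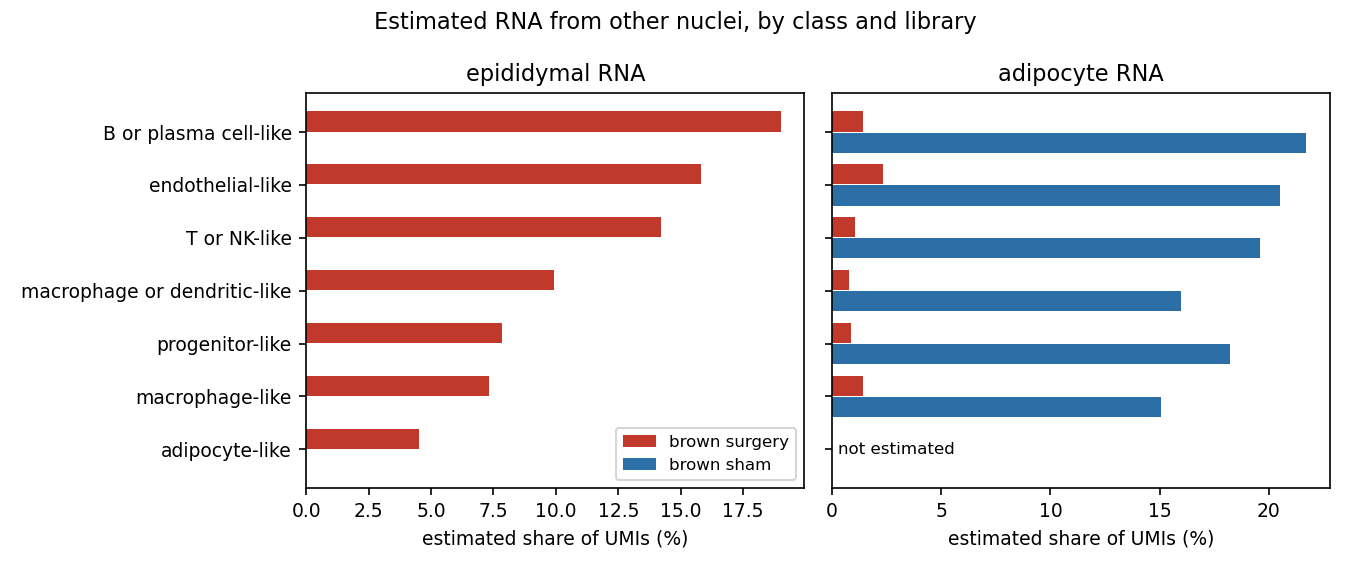
Estimated share of UMIs (x axis, %) that came from epididymal epithelium (left) and from adipocytes (right), by class (y axis) and library (red surgery, blue sham). Epididymal RNA ran from 4.53% in adipocytes to 19.0% in B or plasma cells after surgery and was set to 0 in sham, where the genes used are near absent by choice, while adipocyte RNA was 15.1% or more in every sham class shown other than adipocytes.

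Fewer adipocytes and more macrophages and B or plasma cells were recovered in the surgery library. With epithelial-like clusters out of the base (3277 surgery and 9914 sham nuclei), adipocytes were 17.2% (15.9 to 18.5) after surgery and 40.9% (40.0 to 41.9) in sham, 2.38-fold lower. Macrophages were 26.4% (24.9 to 27.9) and 11.8% (11.2 to 12.5), 2.23-fold higher. B or plasma cells were 4.24% (3.58 to 4.99) and 0.757% (0.595 to 0.947), 5.61-fold higher. T or NK cells were 4.27% and 2.40%, a ratio of 1.78 (1.43 to 2.20) on this base and of 1.05 (0.846 to 1.30) with all members as the base. A cluster with both macrophage and dendritic markers was 4.49% and 2.39%, a ratio of 1.88 (1.52 to 2.31) on this base and of 1.11 (0.895 to 1.37) with all members. Progenitors were 13.5% (12.4 to 14.7) and 18.0% (17.2 to 18.7), 1.33-fold lower. At Leiden resolution 0.5, with all members as the base, the ratio of progenitor shares was 0.0352, since most surgery nuclei of that class then joined clusters of other names. Endothelial nuclei were 5.07% and 7.21%, 1.42-fold lower. That class leaves out a cluster with endothelial and erythroid markers together, at 0.244% after surgery and 9.09% in sham. Lymphatic endothelial nuclei, the lining of lymph vessels, were 1.56% (51 nuclei) and 0.373% (37 nuclei), 4.17-fold higher. With all members as the base, the adipocyte share was 10.1% against 40.9%, 4.04-fold lower, the macrophage share 15.6% against 11.8%, 1.32-fold higher, and the B or plasma share 2.50% against 0.756%, 3.31-fold higher. Each of these ratios moved with the base by over 1.5 times, and those of T or NK cells and of the macrophage or dendritic cluster had intervals that took in 1 with all members. The base without epithelial-like clusters still held 588 surgery and 0 sham nuclei of the smooth muscle-like cluster described next, 17.9% of its surgery side. They lower the surgery share of every other class. No ratio was computed without them, so the 1.33-fold and 1.42-fold gaps of progenitors and endothelial nuclei hold for this base only.

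Some classes were found in a single library or nearly so. Smooth muscle-like nuclei of a cluster led by Myh11 and Acta2 numbered 588 after surgery and 0 in sham, at least 593-fold more as a share. Their summed epididymal markers (19872 CPM) stood above their smooth muscle markers (1676 CPM), and so did their erythroid (3582 CPM), progenitor (2818 CPM) and adipocyte markers (2281 CPM). Another cluster led by Myh11, with pericyte and smooth muscle markers together, held 47 surgery and 267 sham nuclei. Its share was 1.43% after surgery and 2.69% in sham, so smooth muscle markers were found in both libraries. Mesothelial nuclei, of the lining of the body cavity, numbered 111 and 0, at least 112-fold more. Their summed mesothelial markers (2421 CPM) stood below their progenitor (5714 CPM) and epididymal markers (2806 CPM). At resolution 0.5 a cluster of 446 surgery nuclei and 1 sham nucleus carried progenitor and mesothelial markers together. Skeletal muscle nuclei numbered 0 and 346, at least 38.1-fold fewer, and Schwann nuclei, the glia of nerves, 1 and 67. A cluster with endothelial and erythroid genes together, with a median of 970 UMIs, held 8 surgery and 901 sham nuclei. A count of 0 allows a share of up to 0.0915% after surgery and 0.0303% in sham. The libraries thus differed in the cell types captured beside fat.

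**Figure D2:**
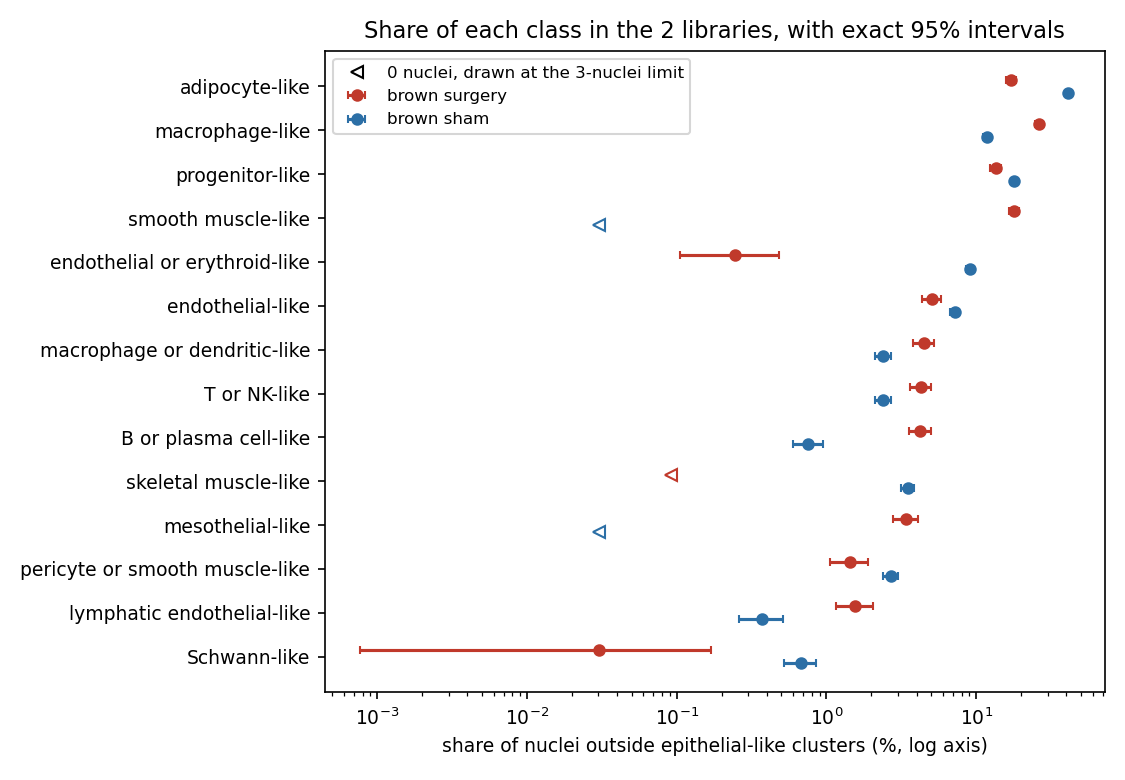
Share of nuclei in each class (x axis, % of nuclei outside epithelial-like clusters, log scale) in surgery (red) and sham (blue), with exact 95% intervals, and open triangles where no nucleus was found. Adipocytes were at 17.2% and 40.9%, and macrophages at 26.4% and 11.8%.

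The adipocytes of the surgery library differed from those of sham in enzymes of fatty acid synthesis, in insulin and hormone signalling, in clock genes and in position genes. The surgery class had 563 nuclei and 3569915 UMIs and the sham class 4059 nuclei and 25152980 UMIs, with medians of 6314 and 5869 UMIs a nucleus. A gene was called when both libraries together held at least 50 UMIs, its CPM differed at least 2-fold and its interval left out 1. By that rule 5.22% of 13017 genes were called higher after surgery and 12.1% lower. The median log2 ratio of all genes was -0.09. With the trend of the ratio over gene span taken off, the calls of Angptl4, Cebpa, Dnajb1, Foxo1, Hilpda, Jund, Lpin1, Me1, Rbp4, Rxra, Socs1 and Tsc22d3 ended, with ratios of 1.74 to 1.99 for those on the high side and 0.280 to 0.700 for those on the low side. With each nucleus thinned to 1000 UMIs, the calls of Cebpa, Dusp1, Gbp3, Hcar1, Hoxd4, Nr1d2, Tsc22d3 and Vldlr ended.

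The 2 libraries filled different adipocyte clusters. Of the surgery adipocytes 95.4% lay in cluster 9, and of the sham adipocytes 73.7% lay in cluster 20 and 26.3% in cluster 28. The 25 surgery nuclei that clustered with sham in cluster 20 held 1328.5 CPM of Fkbp5 and 5607 of Acaca, next to 43.1 and 1550 in the 2990 sham nuclei of that cluster. They held 0 UMIs of Hoxa9, of Tbx15 and of Dbp, next to 87.7, 72.5 and 95.2 CPM in sham. In cluster 9 the same 5 genes stood at 1305 (Fkbp5), 7017 (Acaca), 0.570 (Hoxa9), 1.997 (Tbx15) and 7.99 CPM (Dbp). These 5 genes are among those called between the surgery and sham classes, so the side on which the 25 nuclei lie is no separate finding. The 25 nuclei had a median of 1233 UMIs, next to 5389 in the sham nuclei of cluster 20. In them 3 UMIs stood for 58.6 CPM, not far below the sham levels of Hoxa9, Tbx15 and Dbp. Their 0 counts thus decide little. A single sham nucleus lay in cluster 9. Clusters were made from the same counts, so values by cluster are a description.

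Among 15 genes of fatty acid synthesis 6 were called higher and 1, the main desaturase Scd1, lower, with a median log2 ratio of 0.73. Acacb, the acetyl-CoA carboxylase at the mitochondrial surface, stood at 895 CPM after surgery and 326 in sham, 2.74-fold (95% interval 2.63 to 2.86) higher. Me1, the malic enzyme that supplies NADPH, stood at 1282 CPM after surgery and 594 in sham, 2.16-fold higher. Elovl5, an elongase, was 2.36-fold higher and Scd2, a minor desaturase of fat, 2.88-fold higher. Scd1, the desaturase that makes oleate, went the other way, from 2235 CPM in sham to 806 after surgery, 2.77-fold (2.67 to 2.88) lower. Fasn, the fatty acid synthase itself, was 1.66-fold higher and the regulators Srebf1, Mlxipl and Thrsp 1.30-fold, 1.498-fold and 1.32-fold higher, all short of the 2-fold line.

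Of 12 genes of triglyceride assembly 1 was called higher and 1 lower. Lpin1, which makes diacylglycerol, was at 774 CPM after surgery and 337 in sham, 2.29-fold (2.20 to 2.40) higher. Pck1, which supplies the glycerol backbone, was 5.14-fold lower. Dgat2, the last step, stood at 913 CPM after surgery and 908 in sham, 1.01-fold (0.969 to 1.04) higher and not called. Gpam, the first step, was 1.74-fold higher. The list had a median log2 ratio of 0.33.

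Receptors that steer lipolysis were called on both sides. Of 15 lipolysis genes 2 were called higher and 5 lower, and the median log2 ratio was -0.60. Npr3, the receptor that clears natriuretic peptides, stood at 399.7 CPM after surgery and 2068 in sham, 5.17-fold (95% interval 4.91 to 5.46) lower. Npr1, the receptor through which the same peptides raise cyclic GMP, had 25 and 30 UMIs and was 5.87-fold (3.31 to 10.3) higher. Adrb1 was at 12.6 CPM after surgery and 36.5 in sham, 2.90-fold (2.15 to 4.002) lower. Adrb3, the main beta-adrenergic receptor of mouse fat, was at 800.3 CPM after surgery and 1362 in sham, 1.70-fold lower and not called. Hcar1, the lactate receptor that restrains lipolysis, was 3.29-fold lower. The hormone-sensitive lipase Lipe was 1.27-fold lower and the monoglyceride lipase Mgll 1.15-fold lower, neither called.

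Genes of fatty acid uptake were called lower or not called. Of 11 uptake genes 5 were lower and 0 higher, with a median log2 ratio of -0.58. Fabp4, the fatty acid binding protein of fat, was at 1226 CPM after surgery and 4777 in sham, 3.90-fold (3.78 to 4.02) lower, and Fabp5 4.87-fold lower. Vldlr, a lipoprotein receptor, was 2.35-fold lower and Angptl4, an inhibitor of lipoprotein lipase, 2.16-fold lower. Lpl itself was 1.496-fold lower and Cd36, the fatty acid transporter, 1.38-fold higher, neither called. Among 11 droplet genes Pnpla3, a lipase relative induced by feeding, stood at 1322 CPM after surgery and 329 in sham, 4.02-fold (3.88 to 4.17) higher. Cidea, a droplet fusion protein of brown and beige fat, had 8 and 744 UMIs, 13.2-fold (6.66 to 30.7) lower, and Hilpda 6 and 113 UMIs, 2.67-fold lower. Plin4 was at 1216 CPM after surgery and 1118 in sham and Cidec at 1068 CPM after surgery and 1604 in sham, neither called. None of 13 genes of fatty acid oxidation was called, with a median log2 ratio of -0.18.

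Of 10 thermogenic genes 5 were lower and 0 higher, with a median log2 ratio of -0.99. Ppargc1a, the coactivator that drives mitochondrial genes, was at 53.2 CPM after surgery and 122 in sham, 2.30-fold (1.99 to 2.68) lower. Otop1, a proton channel of brown fat, had 2 and 58 UMIs, 4.12-fold (1.09 to 34.8) lower, and Cox8b, a respiratory chain subunit of brown fat, 7 and 109 UMIs, 2.21-fold (1.04 to 5.63) lower. Ebf2, a selector of brown and beige fate, stood at 534 CPM after surgery and 409 in sham, and Esrrg, a nuclear receptor of oxidative tissues, at 102 CPM after surgery and 51.2 in sham, neither called. Kcnk3 and Atp2a2 were at 23.2 CPM after surgery and 22.8 in sham and 166 CPM after surgery and 174 in sham, not called.

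Insulin pathway genes were called in both directions. Of 14 genes 3 were higher and 2 lower, with a median log2 ratio of 0.41. Grb14, an adaptor that blocks the insulin receptor, stood at 60.8 CPM after surgery and 636 in sham, 10.5-fold (95% interval 9.15 to 12.02) lower. Foxo1, the factor that insulin keeps out of the nucleus, was 2.18-fold higher. The receptor Insr was at 585 CPM after surgery and 516 in sham and Irs1 at 663 CPM after surgery and 373 in sham, neither called. Of 12 adipogenic factors, Rxra was 2.20-fold higher and Cebpa 2.23-fold lower, and Pparg, the master factor of fat, stood at 4872 CPM after surgery and 5480.1 in sham. Of 8 adipokines Lep was 2.92-fold lower and Rbp4 2.25-fold lower, and Retn was at 349 CPM after surgery and 321 in sham.

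**Figure D3:**
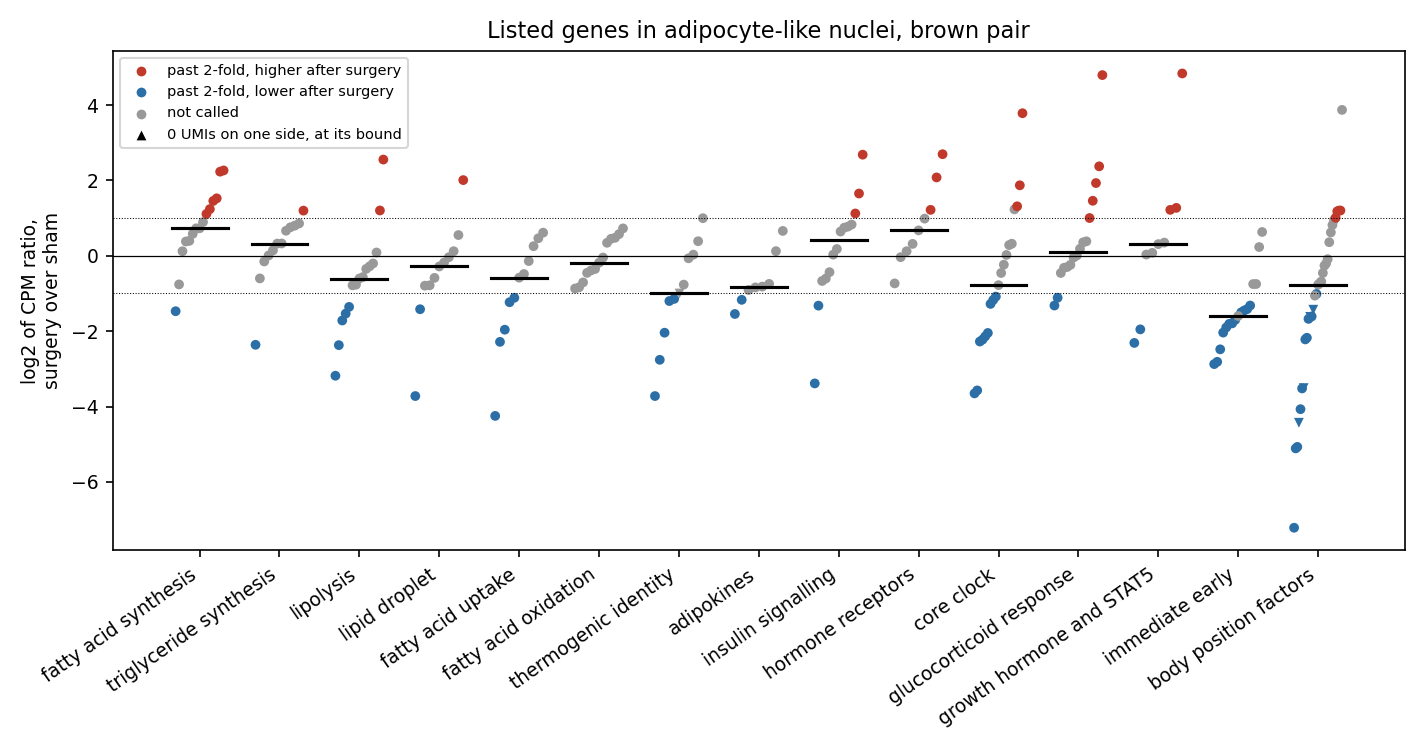
Each point is a gene of a list (x axis) by its log2 CPM ratio of surgery over sham (y axis) in adipocyte nuclei, red or blue where called, grey where not, triangles where a library held 0 UMIs (drawn at the 3-UMI bound), bars the list medians. Fatty acid synthesis had its median at 0.73, the core clock at -0.78 and the immediate early genes at -1.60.

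Clock genes of the adipocytes were called on both sides, the activators Arntl and Clock higher and most repressors and output genes lower. In the mouse clock Arntl (Bmal1) and Clock bind E-boxes and switch on the Per and Cry repressors and output genes such as Dbp, while the nuclear receptors Nr1d1 and Nr1d2 repress Arntl through ROR elements. The PAR bZIP factors Dbp, Tef and Hlf act through D-boxes, where Nfil3 opposes them. Promoters of 4 clock genes are shown, chosen after the values were seen among the called genes that hold any of these elements, so their sides follow from the choice and are no finding about the elements. The window is 250 bases before to 50 bases after the start of the gene (RefSeq, GRCm38.p6), with capitals marking the E-box CACGTG, the D-box TTATGTAA or the ROR half-site TAGGTCA, each searched on both strands.
Ciart, chr3:95882179-95882478, minus strand: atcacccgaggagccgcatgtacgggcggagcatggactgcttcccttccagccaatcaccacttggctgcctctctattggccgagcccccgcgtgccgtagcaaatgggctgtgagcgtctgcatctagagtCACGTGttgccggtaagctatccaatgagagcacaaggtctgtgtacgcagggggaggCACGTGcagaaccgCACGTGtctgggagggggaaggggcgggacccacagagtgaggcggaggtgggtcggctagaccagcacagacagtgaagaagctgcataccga
Bhlhe41, chr6:145865371-145865670, minus strand: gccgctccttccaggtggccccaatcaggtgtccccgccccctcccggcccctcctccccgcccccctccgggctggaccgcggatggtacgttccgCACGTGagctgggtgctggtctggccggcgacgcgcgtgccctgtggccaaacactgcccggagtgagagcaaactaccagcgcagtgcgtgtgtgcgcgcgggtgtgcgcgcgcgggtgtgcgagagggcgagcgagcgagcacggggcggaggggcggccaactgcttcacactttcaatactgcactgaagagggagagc
Per3, chr4:151044616-151044915, minus strand: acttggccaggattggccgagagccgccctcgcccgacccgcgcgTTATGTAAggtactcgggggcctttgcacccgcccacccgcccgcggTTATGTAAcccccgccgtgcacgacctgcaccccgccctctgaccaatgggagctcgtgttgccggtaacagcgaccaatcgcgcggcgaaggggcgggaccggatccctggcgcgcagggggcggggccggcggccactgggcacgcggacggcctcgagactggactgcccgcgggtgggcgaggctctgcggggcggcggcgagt
Nfil3, chr13:52980990-52981289, minus strand: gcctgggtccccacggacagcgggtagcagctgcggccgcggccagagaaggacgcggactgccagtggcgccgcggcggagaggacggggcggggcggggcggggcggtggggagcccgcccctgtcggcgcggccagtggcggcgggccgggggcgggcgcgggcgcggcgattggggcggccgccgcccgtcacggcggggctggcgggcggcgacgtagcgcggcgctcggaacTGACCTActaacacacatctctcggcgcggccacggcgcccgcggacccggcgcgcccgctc
Ciart held 3 E-boxes, Bhlhe41 held 1, Per3 held 2 D-boxes and Nfil3 held 1 TAGGTCA. Of 27025 promoters of this length 7.24% held CACGTG, 0.955% TTATGTAA and 2.64% TAGGTCA. Per1, Cry1 and Tef held 1 E-box each and were not called, and Arntl, Clock, Nr1d1, Dbp and Hlf held none of the 3 motifs in this window. Per2 and Bhlhe40 were not matched.

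Of 18 clock genes with at least 50 UMIs, 3 were called higher and 9 lower in adipocytes, with a median log2 ratio of -0.78. Arntl had 211 and 108 UMIs, 59.1 CPM after surgery and 4.29 in sham, 13.8-fold (95% interval 10.9 to 17.5) higher. Its partner Clock was at 283 CPM after surgery and 77.5 in sham, 3.66-fold (3.39 to 3.95) higher, and Nfil3 at 17.1 CPM after surgery and 6.88 in sham, 2.48-fold (1.82 to 3.34) higher. The other genes of the list that were called stood on the low side.

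Most of the called repressors and output genes stood on the low side. Ciart, a repressor of Clock and Arntl, had 7 and 620 UMIs and was 12.6-fold (6.06 to 31.4) lower. Bhlhe41 was at 8.96 CPM after surgery and 41.9 in sham, 4.67-fold lower, although the left-out epithelium held 62.1 CPM of it, and its paralogue Bhlhe40 was 4.84-fold lower. Per3 was at 233 CPM after surgery and 566 in sham, 2.42-fold (2.26 to 2.60) lower. Dbp was at 7.84 CPM after surgery and 93.3 in sham, 11.9-fold (8.21 to 17.9) lower, and Hlf at 22.7 CPM after surgery and 100 in sham, 4.41-fold lower. Nr1d1 was 4.14-fold (3.02 to 5.82) lower and Nr1d2 2.12-fold lower. Per2 stood at 119.9 CPM after surgery and 118 in sham and Cry1 at 28.3 CPM after surgery and 22.7 in sham, and neither they nor Per1, Cry2, Rora and Tef were called.

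Dbp and Nr1d1 were also lower in progenitors, macrophages and endothelial nuclei. In progenitors Dbp was 3.66-fold lower, Nr1d1 6.05-fold lower, Arntl 2.19-fold higher (1.69 with leaked RNA taken off) and Cry1 2.43-fold higher. In macrophages Dbp was 3.52-fold lower, Nr1d1 4.19-fold lower and Arntl, at 39.4 CPM after surgery and 20.9 in sham, 1.89-fold higher and not called. In endothelial nuclei Dbp was 6.42-fold lower, Nr1d1 3.501-fold lower and Clock 2.10-fold higher, while Arntl had 24 and 9 UMIs, under the minimum. The time of day at which each tissue was taken is not in the sources used here, and its part in these ratios was not tested.

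Several targets of the glucocorticoid receptor were higher in surgery adipocytes, and the receptor gene was not called. Of 16 genes 5 were called higher and 2 lower, with a median log2 ratio of 0.10. Fkbp5, a chaperone partner of the receptor that glucocorticoids induce, stood at 1303 CPM after surgery and 46.9 in sham, 27.8-fold (95% interval 26.04 to 29.6) higher. The left-out epithelium held 937 CPM of Fkbp5, and with the estimated epididymal RNA taken off the ratio in adipocytes was 28. Zbtb16 was at 2123 CPM after surgery and 409.6 in sham, 5.18-fold (5.03 to 5.34) higher. Errfi1, a feedback inhibitor of EGF receptor signalling, was 3.81-fold higher, the metallothionein Mt2 2.75-fold and Tsc22d3, also called GILZ, 2.002-fold, at the line of a call. Dusp1 and Angptl4 were 2.50-fold and 2.16-fold lower. The receptor Nr3c1 was at 656 CPM after surgery and 806 in sham, and Sgk1, Klf9, Per1 and Hsd11b1 were not called.

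Fkbp5 was also higher in the other large classes. It was 4.42-fold higher in macrophages and 2.78-fold higher in progenitors, or 3.30 and 2.31 with leaked RNA taken off. In endothelial nuclei it was 3.78-fold higher, and 1.25 with leaked RNA taken off, which is under the 2-fold line. Zbtb16 was 1.97-fold higher in progenitors and 1.78-fold lower in macrophages, not called in either.

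Genes of growth hormone signalling were called in both directions in adipocytes. Cish, a feedback inhibitor that STAT5 switches on, had 203 and 50 UMIs, 28.6-fold (20.9 to 39.8) higher. Igf1, a growth factor under growth hormone control, was at 1061 CPM after surgery and 439 in sham, 2.41-fold (2.33 to 2.51) higher, and the growth hormone receptor Ghr at 26878 CPM after surgery and 11549 in sham, 2.33-fold higher. Bcl6, a repressor that STAT5 represses, was at 93.3 CPM after surgery and 361 in sham, 3.87-fold (3.47 to 4.33) lower. Socs1, another feedback inhibitor, had 2 and 70 UMIs, 4.97-fold (1.32 to 41.8) lower, while Socs2 was 1.27-fold higher and Stat5a and Stat5b were 1.24-fold and 1.02-fold higher, none of the 3 called. Of the 9 genes tested 3 were higher and 2 lower, with a median log2 ratio of 0.31.

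Immediate early genes, which cells switch on within minutes of a stimulus or of handling, were lower in surgery adipocytes. Of 17 tested, 12 were called lower and 0 higher, with a median log2 ratio of -1.60, or -1.09 with the trend over gene span taken off. Btg2 was at 16.0 CPM after surgery and 112 in sham, 7.03-fold (5.41 to 9.31) lower, and Klf6 at 30.3 CPM after surgery and 124 in sham, 4.11-fold lower. Jund was 2.67-fold lower and Zfp36, which destabilises messenger RNA of cytokines, 2.83-fold lower. Fos was 1.68-fold lower and Fosl2 1.55-fold higher, neither called. Mitochondrially encoded genes were lower with them, 9 of 12, and made up 0.0508% of the surgery adipocytes' total and 0.151% of sham's. The part of handling or of RNA outside the nucleus in these ratios was not tested.

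Heat shock and interferon genes stayed mostly uncalled. Of 9 heat shock genes Dnajb1 was called, 2.03-fold lower, while Hspa8 was at 40.1 CPM after surgery and 47.0 in sham. Of 20 interferon response genes Rsad2 was 4.35-fold higher, and Gbp2 and Gbp3, interferon-gamma induced GTPases, were 2.76-fold and 3.12-fold lower.

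The position genes of surgery and sham adipocytes differed, with the posterior Hox genes near 0 after surgery. Of 26 position genes tested, of 41 listed, 14 were called lower and 4 higher, with a median log2 ratio of -0.77. Hoxc10 had 0 and 456 UMIs, at least 21.6-fold lower against a floor of 3 UMIs in the library, and Hoxa10 had 0 and 241 UMIs, at least 11.4-fold lower. Hoxc9 had 5 and 592 UMIs, 16.8-fold (7.16 to 51.9) lower, and Hoxa7 27 and 886 UMIs, 4.66-fold lower. Hoxc8 was at 32.8 CPM after surgery and 100.1 in sham, 3.05-fold lower, and Hoxc4 at 33.6 CPM after surgery and 40.3 in sham, not called. Ordered along the HoxC cluster on chromosome 15, the genes nearer the posterior end thus had the larger gaps, other than Hoxc5, which was 4.52-fold lower.

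Factors outside the Hox clusters that mark depots were lower too. Tbx15, a factor of subcutaneous and trunk fat, had 7 and 1705 UMIs, 34.6-fold (16.7 to 86.1) lower. Shox2 had 1 and 237 UMIs, 33.6-fold (5.98 to 1334) lower, and Lhx8 6 and 485 UMIs, 11.5-fold (5.23 to 31.4) lower. Irx3 and Irx5 had 0 and 57 UMIs and 0 and 65 UMIs, at least 2.70-fold and 3.08-fold lower. Wt1, a factor of visceral mesenchyme, had 6 and 0 UMIs, and Nr2f1 27 and 13 UMIs, both under the minimum for a call. The 4 genes on the high side, Hoxb3, Hoxd3, Hoxd4 and Hoxd8, were 2.26-fold, 2.30-fold, 2.01-fold and 2.29-fold higher, but the left-out epithelium held 123, 151, 391 and 24.9 CPM of them, and with its RNA taken off the ratios were 1.49, 1.17, 1.14 and 1.71.

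In progenitors, too, position genes were called on both sides. Of 25 position genes tested, 10 were called lower and 8 higher, where 13.2% and 5.84% of all 11262 genes were. Tbx15 had 9 and 2574 UMIs, 61.8-fold (95% interval 32.5 to 135) lower. Hoxc10 had 0 and 192 UMIs, at least 13.8-fold lower, Shox2 0 and 135 UMIs, at least 9.72-fold lower, and Lhx8 0 and 157 UMIs, at least 11.3-fold lower. Hoxc9 was 10.1-fold (4.29 to 31.5) lower and Hoxa9 6.41-fold (3.62 to 12.5) lower. Hoxa5 and Hoxa3, of the anterior end of HoxA, were higher, at 68.9 CPM after surgery and 13.5 in sham and 227 CPM after surgery and 57.5 in sham, 5.10-fold (3.85 to 6.76) and 3.95-fold (3.42 to 4.56). Wt1 had 329 and 0 UMIs, at least 508-fold higher, and Tcf21, another visceral factor, 23 and 0 UMIs, under the minimum. With leaked RNA taken off, 4 position genes were called higher and 10 lower.

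A single cluster held progenitors of both libraries in number, cluster 7 with 102 surgery and 151 sham nuclei. In that cluster alone 7.7% of genes were called higher and 11.7% lower. Within it Tbx15 had 1 and 259 UMIs, 147-fold (26.1 to 5824) lower, and Hoxa5 49 and 8 UMIs, 10.8-fold (5.07 to 26.4) higher. Hoxc10 had 0 and 15 UMIs there, Shox2 0 and 24 UMIs, and Hoxa9 10 and 15 UMIs, 1.18-fold (0.472 to 2.80) higher. The Tbx15 and Hoxa5 gaps were thus present among nuclei that clustered together, while the Hoxa9 interval there took in 1. In the beige pair, whose libraries are others, 0 of 24 position genes were called in adipocytes (background 4.37% higher and 15.2% lower), and Tbx15 was at 86.1 CPM after surgery and 61.9 in sham and Hoxc10 at 13.1 CPM after surgery and 23.1 in sham. Whether the 2 brown libraries come from the same depot cannot be told apart from an effect of the operation.

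**Figure D4:**
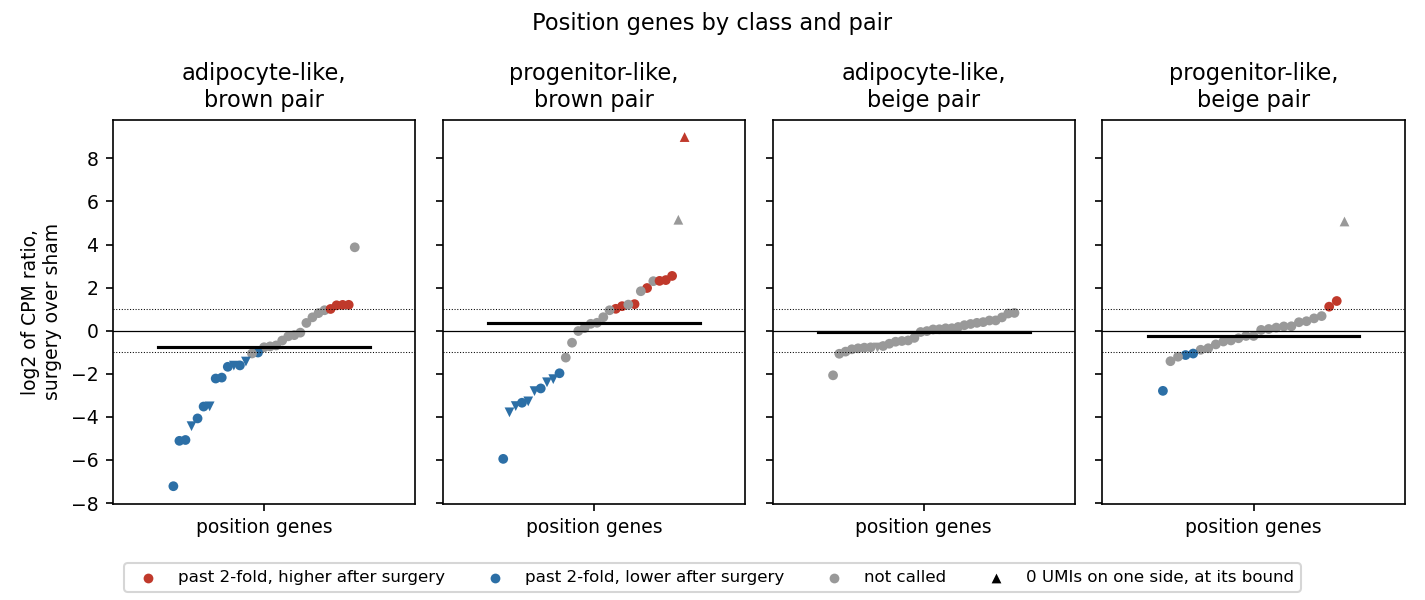
Log2 CPM ratio of surgery over sham (y axis) of each position gene with at least 20 UMIs, in adipocytes and progenitors of the brown and beige pairs, ordered within a panel, bars the medians. The brown pair ran down to -7.22 for Hoxa9 in adipocytes, and the medians of the beige pair were -0.04 and -0.24.

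Some adipocyte genes outside the lists had larger ratios than most list members. C6, a component of the complement membrane attack complex, was at 168 CPM after surgery and 7.39 in sham, 22.7-fold (19.2 to 26.9) higher. Rnf144b, a ubiquitin ligase, was 24.1-fold higher, Foxp2 18.7-fold, Cadps 25.1-fold and the ferritin receptor Scara5 14.7-fold. On the low side Cdh2, N-cadherin, had 5 and 1083 UMIs, 30.7-fold lower. The muscle genes Acta1, Ttn and Myh4 had 0 UMIs after surgery and 1226, 451 and 254 in sham adipocytes, where 346 skeletal muscle nuclei were in the same library.

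Taken as a class, progenitors of the surgery library were high in Wt1, C7 and rare collagens and low in fibrillar collagen and early progenitor genes. In cluster 7, which both libraries filled, the median of the early progenitor genes was above 0. Committed preadipocyte genes were mostly lower in the class, next to sham progenitors that carried more adipocyte RNA. The class held 443 surgery nuclei with 1581122 UMIs and 1780 sham nuclei with 7321961 UMIs. Most surgery progenitors (72.2%) lay in cluster 13 and 23.0% in cluster 7, while sham progenitors lay in cluster 30 (48.6%), cluster 25 (42.9%) and cluster 7 (8.48%). C7, a complement component of mesenchymal cells, stood at 6225 CPM after surgery and 573 in sham, 10.9-fold (10.5 to 11.3) higher, and Col6a5 at 778 CPM after surgery and 3.41 in sham, 228-fold (154 to 353) higher. Col6a6 was 16.7-fold higher, Col12a1 6.65-fold, the matrix proteins Hmcn1 43.3-fold and Spon1 42.6-fold, and the basement membrane chain Col4a6 60.5-fold. These gaps went with cluster 13: in cluster 7 Wt1 had 4 and 0 UMIs and C7 was 1.31-fold (1.22 to 1.40) higher.

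Matrix genes of common fibroblasts were lower. Of 27 collagen and matrix genes 13 were called lower and 4 higher, with a median log2 ratio of -0.79, against -0.04 for all genes. Col1a1 was at 381 CPM after surgery and 1136 in sham, 2.98-fold (2.75 to 3.24) lower, and Col3a1 at 1216 CPM after surgery and 3268 in sham, 2.69-fold lower. Sparc, a collagen-binding protein, was 3.65-fold lower, and Lox, which cross-links collagen, 5.43-fold lower. Dcn was 1.73-fold lower and Fbn1 1.42-fold lower, neither called. In cluster 7 Col1a1 was 2.36-fold lower and Col3a1 1.59-fold lower, the second short of a call. There Col6a1 (1.89) and Col6a2 (2.49) turned to a ratio above 1, and Fbn1 (1.13) and Col5a2 (1.20) stood above 1 too.

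Early progenitor genes, which mark the stem-like end of the fat lineage, were lower in the class, but their median was above 0 in cluster 7. Of 10 genes 9 were called lower, with a median log2 ratio of -1.64. Dpp4 stood at 116 CPM after surgery and 487 in sham, 4.18-fold (3.60 to 4.88) lower, Pi16 at 50.6 CPM after surgery and 376 in sham, 7.44-fold (5.96 to 9.41) lower, and the ligand Wnt2 at 5.06 CPM after surgery and 36.6 in sham, 7.23-fold lower. Within cluster 7 the list had a median log2 ratio of 0.32, and Pi16 had 25 and 38 UMIs, 1.16-fold (0.671 to 1.97) higher, while Dpp4 was 3.91-fold (1.93 to 8.94) lower there too. In sham's cluster 25 Pi16 and Dpp4 stood at 821 and 1038.5 CPM, and the surgery library had 21 nuclei in it.

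Of 10 committed preadipocyte genes 6 were called lower, Pparg, Fabp4 and Lpl among them, with a median log2 ratio of -2.19. An estimated 18.2% of the UMIs of sham progenitors were adipocyte RNA, against 0.895% after surgery. Pparg was at 115 CPM after surgery and 1012 in sham, 8.79-fold lower, but with the estimated adipocyte RNA taken off its ratio turned to 4.93, so no side is given for it. Fabp4 and Lpl were 22.1-fold and 6.88-fold lower, and these are adipocyte genes too. Cxcl14, a chemokine, was 13.3-fold lower and Col4a1 3.02-fold lower. Icam1 was at 42.4 CPM after surgery and 36.6 in sham and Ggt5 at 125 CPM after surgery and 88.1 in sham, neither called.

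Genes of several secreted and surface proteins were among the lowest. Igfbp5, an IGF binding protein, had 16 and 5056 UMIs, 68.2-fold (42.0 to 119) lower, and 10.9-fold (5.61 to 24.2) lower in cluster 7. Myoc had 0 and 451 UMIs, at least 32.5-fold lower. Il1r2, the decoy receptor for interleukin 1, had 3 and 512 UMIs, 36.9-fold (12.5 to 179) lower, and Nrg1 5 and 533 UMIs, 23.0-fold lower. Progenitors carried 7.84% epididymal RNA after surgery.

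Macrophages of the surgery library were low in class II antigen presentation and in Retnla and high in Cxcl13. Saa3, Marco and Fn1 were high too, with most of their UMIs in a cluster of 78 of the 865 surgery nuclei. Genes of lipid-associated macrophages were called in both directions, Trem2 on the high side. The class held 865 surgery nuclei with 2868699 UMIs and 1172 sham nuclei with 4214434, and the 8 macrophage markers summed to 12511 and 12776 CPM. Of 10016 genes 4.97% were called higher and 12.9% lower, and the median log2 ratio of all genes was -0.02. Surgery macrophages lay in cluster 2 (85.7%), and sham macrophages in clusters 17 (71.2%) and 4 (27.6%).

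Class II genes, which present antigen to helper T cells, were lower in 6 of 7, with a median log2 ratio of -2.39. H2-Aa was at 301 CPM after surgery and 1768 in sham, 5.88-fold (95% interval 5.48 to 6.31) lower. H2-Ab1 was 5.23-fold lower, H2-Eb1 5.73-fold, the invariant chain Cd74 6.85-fold, and the peptide loaders H2-DMa and H2-DMb1 3.07-fold and 3.59-fold. Their regulator Ciita was at 110.5 CPM after surgery and 216 in sham, 1.95-fold lower and not called. Leaving out cluster 27 (4.23% of genes called higher and 13.8% lower), H2-Aa was 5.16-fold lower.

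Resident macrophage genes were lower or not called. Of 15, 4 were called lower and 0 higher, with a median log2 ratio of -0.37. Mrc1, the mannose receptor CD206, was at 2845 CPM after surgery and 3600.5 in sham, Cd163 at 572 CPM after surgery and 587 in sham and F13a1 at 5867 CPM after surgery and 5062 in sham, none called. Pf4, a chemokine, was at 43.6 CPM after surgery and 578 in sham, 13.3-fold (11.1 to 16.0) lower, and the lectin Mgl2 9.41-fold (7.48 to 11.98) lower. Folr2 and Cbr2 were 2.44-fold and 2.69-fold lower. Retnla, a secreted product of alternatively activated macrophages, had 94 and 8070 UMIs, 58.4-fold (47.7 to 72.4) lower, and the eosinophil chemokine Ccl24 16 and 469 UMIs, 19.95-fold (12.2 to 35.2) lower. Of the sham Retnla UMIs 6663 lay in cluster 4, at 4970.5 CPM. Sham cluster 17 held 493 CPM of Retnla and surgery cluster 2 held 27.6.

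A small surgery cluster carried most of the acute phase gene. Saa3, serum amyloid A3, had 2320 and 1 UMIs, 3408-fold (611 to 134680) higher, and Marco, a scavenger receptor, 531 and 0 UMIs, at least 260-fold higher. Cluster 27, with 78 surgery and 0 sham nuclei, held 5656 CPM of Saa3, 1419 of Marco, 5900.5 of Fn1 (fibronectin) and 411 of Timd4, a receptor of tissue-resident macrophages, and 11.1 CPM of H2-Aa. Without it Saa3 had 283 and 1 UMIs, 475-fold (84.6 to 18845) higher, and Marco 20 and 0 UMIs, and Fn1 was 3.35-fold (2.73 to 4.12) higher in place of 24.6-fold (20.8 to 29.3). Cxcl13, which draws B cells, had 1281 and 17 UMIs, 111-fold (68.9 to 191) higher, and was at 334 CPM in cluster 2. Olr1, a receptor for oxidised LDL, had 169 and 1 UMIs, 248-fold (44.0 to 9864) higher, and Lpcat2, which makes platelet-activating factor, 704 and 15 UMIs, 69.0-fold higher. Fpr1, a formyl peptide receptor, had 96 and 0 UMIs and Acod1, which makes itaconate, 61 and 0 UMIs, at least 47.0-fold and 29.9-fold higher.

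Cytokine genes were sparse. Of 7 inflammation genes tested 2 were called, Saa3 and Marco. Tnf had 14 and 13 UMIs, Il1b 5 and 13 UMIs and Il1a 32 and 0 UMIs, all under the minimum. Nfkb1 was at 450.4 CPM after surgery and 238 in sham, 1.89-fold higher and not called.

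Genes of lipid-associated macrophages, which take up lipid from dying adipocytes, were called in both directions, 5 higher and 5 lower of 15. Trem2, the receptor that marks them, was at 73.2 CPM after surgery and 27.5 in sham, 2.66-fold (2.11 to 3.37) higher, and Gpnmb at 48.1 CPM after surgery and 8.78 in sham, 5.48-fold (3.79 to 8.10) higher. Cd9 was 3.36-fold higher, the proton pump subunit Atp6v0d2 6.93-fold (5.13 to 9.51) higher, and Mmp12, an elastase, had 104 and 2 UMIs, 76.4-fold (20.6 to 639) higher. Itgax, CD11c, had 28 and 4 UMIs, under the minimum. Fabp4, Cd36 and Lpl, which adipocytes also express, were 27.8-fold, 3.49-fold and 3.61-fold lower. With adipocyte RNA taken off, Fabp4 and Cd36 had ratios of 0.0334 and 0.293 and Lpl of 0.829. Lipa, the lysosomal lipase, and Lgals3 were not called. Without cluster 27, Trem2 was 2.24-fold higher and Gpnmb 5.90-fold higher.

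In the beige pair Trem2 and Gpnmb stood on the other side. There 1 of 16 lipid-associated genes was called higher and 14 lower (background 8.65% and 15.9%), with Trem2 at 4.06 CPM after surgery and 74.1 in sham, 18.3-fold lower, and Gpnmb at 33.5 CPM after surgery and 385 in sham, 11.5-fold lower. Class II genes were lower in 6 of 7 in that pair as well, with H2-Aa 3.94-fold lower. The beige libraries differed in make-up. B or plasma cells were 36.7% of beige surgery members and T or NK cells 28.5%, against 0.727% and 1.91% in beige sham. The beige macrophage class held 272 surgery and 719 sham nuclei. A cluster of it with Timd4 and Cd209b among its top genes held 92 surgery and 0 sham nuclei, doublets counted. The difference between the pairs was not tested.

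**Figure D5:**
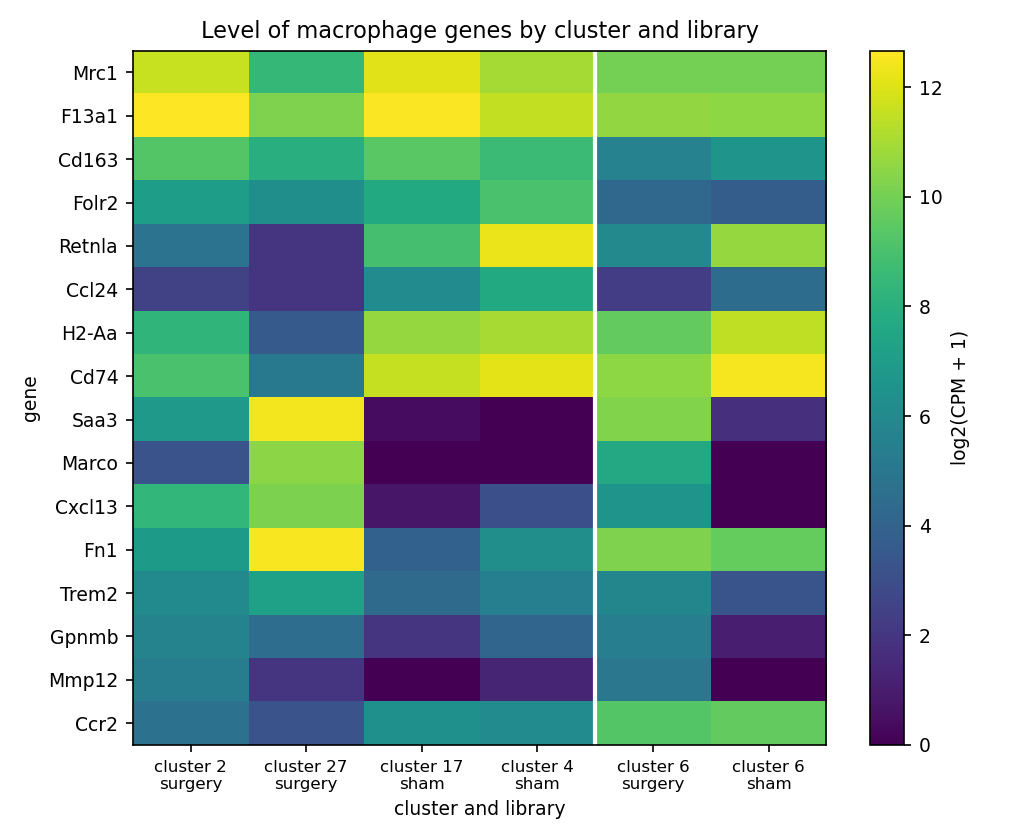
Level of 16 macrophage genes (y axis) as log2(CPM + 1) by cluster and library (x axis), with the white line before the cluster that both libraries share. H2-Aa was at 312 CPM in surgery cluster 2 and at 2077 and 1646 in sham clusters 4 and 17, and Saa3 reached 5656 in surgery cluster 27.

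Both libraries met in cluster 6, which had macrophage and dendritic markers (147 surgery and 237 sham nuclei). There 6 of 7 class II genes were called lower, where 7% of 5284 genes were called lower and 4.58% higher. H2-Aa was at 783 CPM after surgery and 2802 in sham, 3.58-fold (3.22 to 3.99) lower, and Cd74 at 1479 CPM after surgery and 5799 in sham, 3.92-fold (3.63 to 4.24) lower. Saa3 had 605 and 2 UMIs, 542-fold (149 to 4488) higher, and Marco 100 and 0 UMIs. The neutrophil genes Csf3r and S100a9 were both 10.2-fold higher, and Cd38, an NAD hydrolase, 14.7-fold higher. Retnla was 26.3-fold (18.4 to 38.8) lower and the lysozyme Lyz1, a near copy of Lyz2, 6.52-fold (4.46 to 9.89) lower, as was the dendritic lectin Cd209a, 5.66-fold. Ccr2, which draws monocytes from blood, was at 610.5 CPM after surgery and 793 in sham, not called, whereas in the macrophage class it was 2.93-fold (2.26 to 3.82) lower. Mitochondrially encoded genes were not called in this cluster (0 of 10), with 0.397% of UMIs after surgery and 0.305% in sham. Size factors by median of ratios, which set the median of well-counted genes to 0, would lower the log2 ratios of this cluster by 0.16 and change the calls from 242 higher and 370 lower to 172 and 475.

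Endothelial nuclei of the surgery library were low in capillary genes and high in venous adhesion genes. The class held 166 surgery and 715 sham nuclei, and 5.75% of 7319 genes were called higher and 16% lower. The cluster with endothelial and erythroid genes together (8 surgery and 901 sham nuclei) is not part of this comparison. Of 12 capillary genes 9 were lower, with a median log2 ratio of -1.71, against -0.06 for all genes. Gpihbp1, which holds lipoprotein lipase on the capillary wall, was at 137 CPM after surgery and 1131 in sham, 8.26-fold (6.46 to 10.7) lower. Car4 was 4.61-fold (3.11 to 7.13) lower, Rgcc 2.995-fold, the water channel Aqp1 2.64-fold and Kdr, the main VEGF receptor, 2.31-fold (1.94 to 2.76). Tcf15, with Meox2 a regulator of fatty acid transport, was 5.46-fold lower, and Meox2 1.72-fold lower and not called. Median-of-ratios size factors would lower the log2 ratios of the class by 0.18 and change the calls from 421 higher and 1170 lower to 274 and 1488, and with the span trend taken off the calls of Aplnr, Aqp1, Clock, Gja4 and Vwf ended.

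Of 8 venous genes 3 were called higher and 0 lower, with a median log2 ratio of 0.85. Selp, the P-selectin that catches leukocytes, was at 421 CPM after surgery and 46.2 in sham, 9.12-fold (7.10 to 11.8) higher, Vcam1 3.75-fold (2.88 to 4.87) higher and Vwf 2.46-fold (2.07 to 2.92) higher. Il1r1, the interleukin 1 receptor, was 5.98-fold (5.05 to 7.10) higher, Insr 4.33-fold (3.77 to 4.97) and the factor Meis2 19.8-fold (14.4 to 27.7). Ighm and Igkc, immunoglobulin genes of B cells, were 14.2-fold and 11.8-fold higher in the same nuclei. The surgery library had 4.24% B or plasma cells, and the part of their RNA was not tested.

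Most Selp UMIs lay in cluster 26, which held 60 of 166 surgery and 122 of 715 sham nuclei, with 967 and 204 CPM of Selp. Within cluster 26 Vcam1 was at 533 CPM after surgery and 287 in sham, and Vwf at 977 CPM after surgery and 883 in sham. In cluster 21 alone (106 and 593 nuclei, 6.28% of genes called higher and 15.4% lower) Selp had 6 and 16 UMIs and Vcam1 was 1.67-fold higher, and Insr was 1.92-fold (1.49 to 2.45) higher. The capillary genes named were lower there too, Gpihbp1 5.93-fold lower, Car4 3.55-fold, Rgcc 2.29-fold and Kdr 2.12-fold. Of 12 genes of angiogenesis 5 were lower in the whole class, among them the ligand Apln with 2 and 83 UMIs, 9.69-fold (2.60 to 81.3) lower, and its receptor Aplnr, 2.62-fold lower, while Flt1 was 1.40-fold higher and Tek 1.17-fold higher, not called. The arterial genes Gja4, Sema3g and Cxcl12 were 5.72-fold, 3.78-fold and 3.64-fold lower, 3 of 10 tested, with Efnb2 at 189.6 CPM after surgery and 177 in sham.

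T or NK cells of the surgery library (140 nuclei, 238 in sham) were high in Itgae, Cd8b1 and Nt5e. Of 3631 genes 3.42% were called higher and 9.23% lower. Itgae, the CD103 chain that holds T cells at epithelium, had 67 and 10 UMIs, 14.8-fold (7.57 to 32.3) higher, and Cd8b1 36 and 17 UMIs, 4.68-fold (2.56 to 8.89) higher. Nt5e, CD73, which makes adenosine, was 18.8-fold higher, Cd38 5.16-fold and the ATP receptor P2rx7 3.47-fold. The left-out epithelium held 108 CPM of Itgae and 74.0 of Nt5e. On the low side stood macrophage genes, F13a1 with 1 and 147 UMIs, 66.5-fold (11.8 to 2645) lower, and H2-Aa with 3 and 131 UMIs, 19.8-fold (6.61 to 97.0) lower. Median-of-ratios size factors would lower the log2 ratios of the class by 0.21 and change the calls from 124 higher and 335 lower to 62 and 434.

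B or plasma cells (139 and 75 nuclei) were higher in IgG constant genes and Prdm1 and lower in Ighd and class II genes. Of 2104 genes 15.3% were called higher and 12.5% lower. The summed B cell markers were at 13353 CPM after surgery and 9017 in sham. The summed plasma cell markers were at 2002 CPM after surgery and 1302 in sham, so both sets were higher. The IgG constant genes Ighg1 and Ighg2b had 157 and 0 UMIs and 323 and 5 UMIs, at least 32.6-fold and 40.2-fold (17.04 to 125) higher, and how reads of these close copies were shared out is not given in the sources used here. Prdm1, the factor that drives plasma cells, had 117 and 3 UMIs, 24.3-fold (8.10 to 119) higher. Dnajb9 and Edem3, of protein folding and disposal in the endoplasmic reticulum, had 64 and 1 UMIs and 166 and 10 UMIs, 39.8-fold (6.89 to 1597) and 10.3-fold (5.48 to 21.9) higher. Ighd, the IgD constant gene of naive B cells, was at 84.1 CPM after surgery and 834 in sham, 9.91-fold (6.41 to 16.0) lower. Cd74, H2-Eb1 and H2-Ab1, which plasma cells silence, were 8.11-fold, 8.37-fold and 8.09-fold lower, and all 5 class II genes tested were lower. These nuclei carried the most epididymal RNA, 19.0%, and median-of-ratios size factors would raise their log2 ratios by 0.13.

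The beige pair, run the same way and sharing no library with the brown pair, gave its own counts for the adipocyte lists, where 4.37% of 12473 genes were called higher and 15.2% lower. There 8 of 15 genes of fatty acid synthesis were called higher and 1 lower, 3 of 18 clock genes higher and 7 lower, and 5 of 16 glucocorticoid response genes higher and 0 lower. Fkbp5 stood at 445 CPM after surgery and 35.3 in sham, 12.6-fold higher, Arntl at 41.2 CPM after surgery and 2.95 in sham, 14.0-fold higher, and Cish at 50.6 CPM after surgery and 1.03 in sham, 49.0-fold higher. Thermogenic genes were lower in 5 of 10 in the brown pair (median log2 ratio -0.99) and in 1 of 11 in the beige pair (-0.12), which is not above the beige background. Immediate early genes were called lower in 12 of 17 in the brown pair, and higher in 4 of 18 and lower in 0 in the beige pair. Of 10 early progenitor genes 8 were higher in the beige pair (background 5.59% higher and 18.1% lower) and 0 in the brown pair. In both pairs surgery and sham progenitors filled their clusters in different proportions. Of 10 committed preadipocyte genes 7 were lower in the beige and 6 in the brown pair, with leaked RNA not taken off. The brown 6 count Pparg, for which no side is given above. Of 12 capillary genes 4 were lower in beige endothelial nuclei (background 5.68% higher and 14.5% lower), against 9 in the brown pair. These counts cover unlike parts of the endothelium. The beige class held 113 surgery and 396 sham nuclei. It leaves out clusters named erythroid that also carried endothelial markers, Gpihbp1 among their top genes, with 57 surgery and 1890 sham nuclei. No test compares the pairs, since each side of each is 1 library.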

How the data were processed

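Single-nucleus gene counts were deposited by the authors as matrices of whole-number UMI counts, 1 per library, with 32285 genes; the labels' protocols name a SeekGene kit. The genome build mm10 and Seurat 4.4.0 and 4 stand in the submitters' processing notes with no role, while for the aligner and the counting tool: not given in the sources used here. Total counts were 60409801 UMIs for brown surgery and 47525684 for brown sham. Cell-type names and all values below were computed from the counts.

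Barcodes with at least 300 genes and under 10% mitochondrially encoded UMIs were kept, and nuclei with 2 or more of the 5 epithelial genes left out. Doublets were called with Scrublet in scanpy 1.11.5 (expected rate 6%), which marked 299 surgery and 446 sham members, and taken out. Members of the pair were scaled to 10000 UMIs, logged, reduced to 2000 variable genes and 30 components, and clustered (15 neighbours, Leiden resolution 1.0, igraph 0.11.9). A cluster took a class name from at least 3 markers with a mean fold of at least 2, each detected in at least 5% of its nuclei, and a joint name where a second class came within 90%; these limits were set after the clusters were seen, so another naming could move nuclei between classes. All class names mean "like". UMIs were summed by class and library, and ratios of CPM were given exact conditional binomial 95% intervals (scipy 1.17.1), for classes with at least 50 nuclei in each library. With 1 library a group there was no test. List medians take genes with at least 20 UMIs, genes at 0 standing at a bound of 3 UMIs. Epididymal RNA was estimated from the 20 genes highest in left-out surgery nuclei and under 1 CPM in sham, and adipocyte RNA from Adipoq, Plin1, Plin4, Cidec and Pnpla3. Scripts were tested on simulated counts.

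Named genes are the list members and, in each class, the 12 called genes highest and lowest by the interval bound nearest 1, without gene models, mitochondrial and ribosomal genes and genes higher in the left-out epithelium (or, when lower, in sham adipocytes). The members and lists were chosen with earlier results of these data known. Alternatives were doublets kept, another resolution, a stricter membership rule, other bases, median-of-ratios scaling, no minimum of UMIs, leaked RNA taken off, thinning to 1000 UMIs and the span trend taken off (20 bins). Those by cluster, and the base without epithelial-like clusters that the report uses, were chosen after seeing the data. Some genes of the lists are counted in them but not reported here by name.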

Additional observations from a re-analysis of the deposited data

Results flagged for a closer look

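Of the listed genes called in both the brown and the beige pair, 3 of 59 in adipocytes, 1 of 21 in endothelial nuclei, 5 of 34 in macrophages and 9 of 50 in progenitors stood on opposite sides. The difference between the pairs was not tested, since each side of each pair is 1 library.

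Among macrophage genes of lipid handling, Trem2 had a ratio of surgery over sham of 2.66 in the brown pair and 0.0548 in the beige pair, and Gpnmb of 5.48 and 0.0871. Cd9 had ratios of 3.36 and 0.424, Atp6v0d2 of 6.93 and 0.158, and Mmp12 of 76.4 and 0.180. All 5 were higher in the brown pair and lower in the beige pair, and the macrophage classes of the pairs differed in their clusters.

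Among early progenitor genes, Dpp4 had ratios of 0.239 and 2.56, Sema3c of 0.387 and 2.77, Cd55 of 0.475 and 2.34, and Anxa3 of 0.479 and 2.44. Wnt2 had ratios of 0.138 and 2.44, Bmp7 of 0.267 and 2.68, Dact2 of 0.0615 and 2.72, and Limch1 of 0.448 and 4.44. All 8 were lower in the brown pair, where 72.2% of surgery progenitors lay in a cluster with 1 sham nucleus. The mix of clusters differed in the beige pair too. There a progenitor cluster led by Opcml and C7 held 155 surgery and 339 sham nuclei, doublets counted. Another, led by Lama2 and Smoc2, held 62 and 845. The part of this mix in the ratios was not tested. In cluster 7 alone the brown ratios were 2.29 for Anxa3, 2.53 for Cd55, 1.33 for Sema3c and 1.58 for Limch1, above 1 as in the beige pair, and 0.256 for Dpp4.

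The immediate early gene Fosb had ratios of 0.286 and 5.43 in adipocytes and 0.406 and 4.32 in progenitors, and Klf4 of 0.182 and 2.09 in endothelial nuclei. The heat shock gene Dnajb1 had 0.492 and 2.29 in adipocytes. Rsad2, an interferon response gene, had 4.35 in brown adipocytes and 0 in beige, where the surgery library held no UMI of it.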

How the results depend on the processing

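No paired analysis was possible because each group is 1 library and the labels give no replicate numbers. Depth limits the small classes: 3 UMIs stood for 0.840 CPM in surgery adipocytes but for 10.5 in surgery B or plasma cells. Ratios of shares (surgery over sham) kept their side for adipocyte, progenitor, endothelial, lymphatic endothelial, macrophage and B or plasma classes. The 2 smaller bases below both kept the 588 smooth muscle-like surgery nuclei, and no base without them was computed. The ratio of the unnamed clusters was 0.714 with all members and 1.21 and 1.23 on the 2 smaller bases, each with an interval that took in 1. The adipocyte ratio was 0.345 with nuclei left out at 1 epithelial gene, 0.428 without epithelial, lymphoid, plasma and muscle clusters in the base, and 0.420 without epithelial-like clusters. In that order of settings the progenitor ratio was 0.640, 0.768 and 0.753, the endothelial ratio 0.573, 0.717 and 0.702, and the macrophage ratio 1.89, 2.28 and 2.23. The progenitor ratio was 0.0352 at resolution 0.5 and the macrophage ratio 1.20 with doublets kept. The lymphatic ratio was 4.26 and 4.17 on the 2 smaller bases. With all members the T or NK ratio was 1.05 (0.846 to 1.30) and the B or plasma ratio 3.31, and without epithelial-like clusters they were 1.78 and 5.61.

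With no minimum of UMIs, genes called higher numbered 1304 in adipocytes, 1389 in progenitors, 997 in endothelial nuclei, 1029 in macrophages, 775 in the macrophage or dendritic cluster, 524 in T or NK and 725 in B or plasma cells. Genes called lower then numbered 2064 in macrophages, 838 in the macrophage or dendritic cluster, 969 in T or NK and 1333 in B or plasma cells. Thinned to 1000 UMIs, which leaves fewer UMIs, the higher and lower calls were 417 and 760 in adipocytes, 363 and 710 in progenitors, 215 and 381 in endothelial nuclei, 284 and 460 in macrophages, 62 and 76 in the macrophage or dendritic cluster, 48 and 85 in T or NK and 128 and 87 in B or plasma cells. Median-of-ratios scaling gave 62 higher in T or NK and 274 in endothelial nuclei. Lower calls in T or NK were 510 with doublets kept and 211 with leaked RNA taken off, and in endothelial nuclei 732 with the span trend taken off. Cluster 7 alone gave 287 higher and 438 lower.

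In cluster 7 alone the early progenitor median turned to 0.32, and the ratios of Anxa3 (2.29), Cd55 (2.53), Col6a1 (1.89), Col6a2 (2.49), Fbln1 (0.985), Pi16 (1.16) and Sema3c (1.33) turned. With leaked RNA taken off, the progenitor ratio of Pparg turned to 4.93. The cause was not tested. Among the called list genes and top genes, the call ended for 80 of 453 with the span trend taken off, for 16 of 444 with leaked RNA taken off (1 more turned), for 20 of 299 when thinned, and for 10 and 5 of 453 with doublets kept and under median-of-ratios scaling. In cluster 7 alone it ended for 12 of 43 and turned for 7.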

Other observations

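Matrix genes in the adipocytes were called on both sides. Of 24 tested, 2 were higher, the basement membrane chain Col4a1 (2.01-fold) and Col5a1 (2.16-fold), and 8 lower, with a median log2 ratio of -0.67, against 5.22% and 12.1% of all adipocyte genes. Among the 8, Dcn, a proteoglycan of fibroblasts, stood at 17.1 CPM after surgery and 35.6 in sham, and Lum at 1.68 CPM after surgery and 5.05 in sham. Sham progenitors held 3506 CPM of Dcn, and the part of progenitor RNA in the adipocyte values was not tested.

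Monocyte genes in the macrophages were called on both sides too, 3 higher and 2 lower of 7, against 4.97% and 12.9% of all macrophage genes. Cx3cr1, the fractalkine receptor, was at 79.1 CPM after surgery and 8.78 in sham, 9.01-fold (6.35 to 13.1) higher, and the integrin Itgal 3.49-fold (1.90 to 6.70) higher. S100a4 was 3.38-fold lower. In the macrophage or dendritic cluster Cx3cr1 was 5.19-fold and Itgal 2.71-fold higher.

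Of 19 interferon response genes none was called higher in macrophages or progenitors. In macrophages 3 were lower, against 12.9% of all genes, Irf7, Isg15 and Ifi44, at 2.92-fold, 3.66-fold and 2.08-fold. In progenitors 5 were lower, against 13.2% of all genes, with Usp18 3.17-fold and Ifit3 2.47-fold lower.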
